A study of Mus musculus with 6 samples.

Results

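The genes described here encode the zinc-dependent proteases that cut extracellular matrix and cell surface proteins, and the inhibitors that hold them in check. They were chosen by gene symbol, with earlier results of these data known. The set held matrix metalloproteases (Mmp), a disintegrin and metalloproteases (Adam) and their secreted relatives with thrombospondin repeats (Adamts). The ADAMTS-like proteins (Adamtsl) and the tissue inhibitors of metalloproteases (Timp) were also included. Mmp12 was left out of the set, and Timp1 was not analysed here. The rule found 59 of the 25718 genes in the expression table, of which 20 were Adam, 15 Adamts, 5 Adamtsl, 16 Mmp and 3 Timp genes (Timp2, Timp3 and Timp4).

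Hepatocytes were taken from alcohol-fed wild-type (WT) and alcohol-fed S100a16KO+/- mice, and their polyadenylated RNA was sequenced in 3 libraries per genotype to ask how S100a16 acts on lipid accumulation. S100a16KO+/- mice carry 1 deleted allele of the calcium-binding protein gene S100a16, made by crossing a floxed allele with EIIa-Cre mice on a C57BL/6 background. EIIa-Cre is active in the early embryo, so the allele was missing in every tissue of these animals and not in hepatocytes alone, and homozygous loss was lethal. Mice were age-matched young adult males that received an ethanol liquid diet and a final ethanol gavage, so both genotypes had been exposed to ethanol and no library came from a control diet. Whether each library held the cells of 1 animal was not stated, so the p-values measure the spread between these libraries.

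Members of the family act at different places. MMPs are secreted or anchored in the membrane as inactive proenzymes and degrade collagens and other matrix proteins once their prodomain is removed. ADAMs sit in the plasma membrane, where the active ones release ligands and receptors from the cell surface, while ADAMTS enzymes are secreted and process proteoglycans, procollagens and von Willebrand factor. TIMPs block the active site of these enzymes, and TIMP3, which stays bound to the matrix, also inhibits several ADAM and ADAMTS enzymes. In the liver, stellate and endothelial cells are a known source of many of them besides hepatocytes.

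The targeted gene was examined first. S100a16 had estimated counts of 1001, 1056 and 1107 in the WT libraries and of 433, 390 and 366 in the S100a16KO+/- libraries, 38.0% of the WT level after scaling (log2 fold change -1.40 ± 0.11 (SE), adjusted p = 4.14e-07, edgeR quasi-likelihood test with Benjamini-Hochberg adjustment). The libraries held 67658095 to 71807834 estimated counts each. An estimated count is the value that the transcript assembler reports per gene, and low values clustered at multiples of 4, so that 1 sequenced fragment was worth about 4 counts and a floor of 3 fragments was 12 counts. Mitochondrial transcripts made up 21.1% of the counts in WT replicate 1 and 20.1% in S100a16KO+/- replicate 2, against 17.0% to 18.6% in the other 4 libraries.

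The hepatocyte identity of the libraries was checked with markers. Summed hepatocyte markers reached 127032 to 139634 CPM in WT and 124264 to 136906 in S100a16KO+/- libraries, where CPM are counts scaled to the library total. Of these 10 markers, 2 were higher and 2 lower in S100a16KO+/- libraries at an adjusted p under 0.05 (edgeR). Among all genes tested, 11.6% were higher and 11.2% lower. Markers of other liver cells were present, and several of their sums moved with genotype. Summed stellate cell and fibroblast markers ranged from 70.2 to 76.0 CPM in WT and from 116.1 to 129.3 in S100a16KO+/- libraries, and 8 of these 14 genes were higher. Summed sinusoidal endothelial markers ranged from 282.2 to 293.9 CPM and from 405.8 to 427.8 CPM, with 9 of 10 genes higher and 1 lower. Kupffer cell and macrophage markers ranged from 176.4 to 205.0 CPM in WT and from 207.7 to 227.0 CPM in S100a16KO+/- libraries, with 4 of 12 higher. None of the stellate, endothelial and macrophage markers stayed at or under the floor. Neutrophil markers were scarce but also higher in sum, from 3.73 to 5.61 CPM in WT and from 5.87 to 7.39 CPM in S100a16KO+/- libraries (145.8% of WT, no overlap). Of the 5 neutrophil genes tested, 0 were called, and Ly6g and Camp stayed at or under the floor. Lymphocyte, cholangiocyte, mesothelial and platelet marker sums overlapped between genotypes. Erythroid markers fell to 10.4% of WT, with all 5 genes lower. In bulk libraries, a change in the share of a cell type and a change in RNA per cell cannot be told apart.

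Most of the family was weakly transcribed in these cells. Levels between genes are given in FPKM (fragments scaled to transcript length and to the library total), as deposited. Only 10 members reached a mean of 1 FPKM over the 6 libraries, against 9054 of all genes, and 15 members stayed at or under 12 counts in every library. In WT libraries the order of mean levels was led by Mmp19 with 14.2 ± 1.20 FPKM (SD, n = 3) and Adam9 with 9.99 ± 0.951 FPKM, followed by Adam11, Mmp14, Mmp15, Adam10, Timp3, Adamts7, Adam17 and Adamts1. Adam9 encodes a shedding enzyme of broad specificity. In S100a16KO+/- libraries Adam9 with 9.72 ± 1.35 FPKM and Mmp19 with 9.60 ± 1.01 FPKM lay within each other's spread, and Timp3 had moved from the seventh to the third place. The plot of levels by library shows this order.

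**Figure D1:**
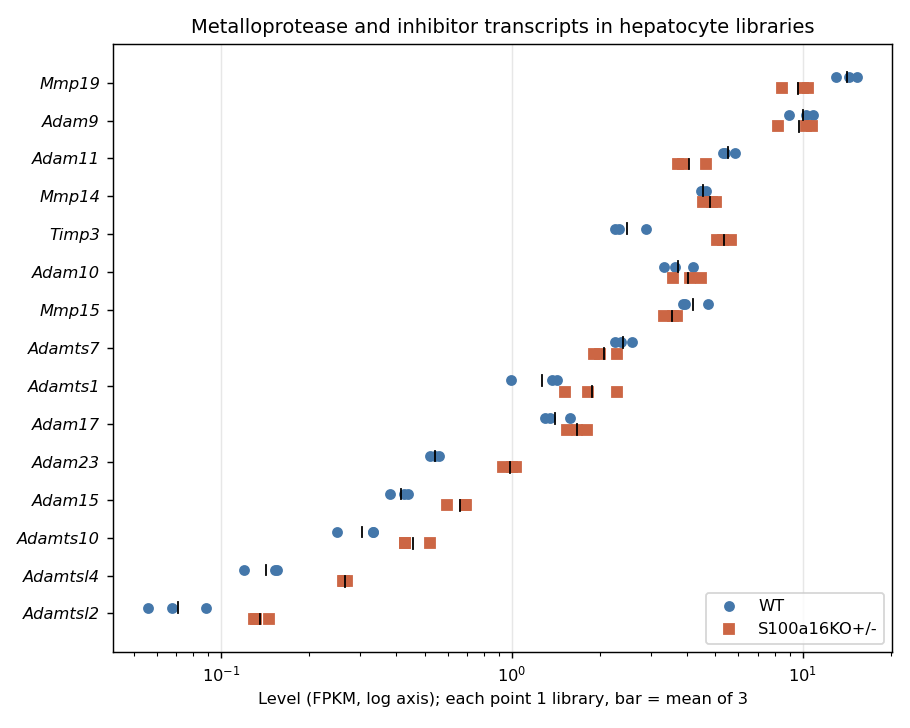
Level of 15 members in each library (FPKM, log axis), WT as blue circles, S100a16KO+/- as orange squares, and a black bar at the mean of the 3 libraries of a genotype. Timp3 and Adam23 lie to the right in all S100a16KO+/- libraries and Mmp19 and Adam11 to the left, while the points of Adam9, Mmp14 and Adam10 overlap.

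Of the 59 members, 40 passed the filter on low counts and were tested in 1 fit with all 15957 genes that passed. At an adjusted p under 0.05, 11 of the 40 (27.5%) changed, 8 higher and 3 lower in S100a16KO+/- hepatocytes. Among all genes tested the share called was 22.8%, with 11.6% higher and 11.2% lower, so the share of members called was near that of all genes. Log2 fold changes were positive for 27 of the 40 members (67.5%) and for 50.6% of all genes tested, and the median was 0.32 over the members and 0.01 over all genes. Values did not overlap between genotypes for 17 members (42.5%), 13 higher and 4 lower, against 37.9% of all genes (19.2% higher and 18.6% lower). The criterion in the study's methods was an unadjusted p under 0.05 with at least a 2-fold change, used there with DESeq2. With edgeR, Timp3 and Mmp13 met it, 2 of 40 members against 4.52% of all genes. With DESeq2, 3 of 59 members met it, 2 higher and 1 lower, against 3.67% of all genes. The count of 11 fell to 6 without WT replicate 1, to 7 without S100a16KO+/- replicate 1, to 6 without S100a16KO+/- replicate 2 and to 6 without S100a16KO+/- replicate 3. The share of all genes called fell too, to 18.6%, 17.7%, 19.9% and 17.4% in the same order. Without both libraries of high mitochondrial share, an alternative chosen after seeing the data, 6 of 38 members were called, beside 21.1% of all genes. Of these members 3 were higher (Timp3, Adam23 and Adamts1) and 3 lower (Mmp19, Adam11 and Mmp15).

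Of the 10 members at 1 FPKM or more, 5 were called, 2 higher and 3 lower, with a median log2 fold change of 0.02. Among all tested genes at that level 32.7% were called, 15.5% higher and 17.2% lower. The 30 tested members below 1 FPKM gave 6 calls, all of them higher, with a median of 0.47, where 9.92% of all genes were called, 6.48% higher and 3.44% lower. A weakly transcribed gene that passed the filter only through its higher group had to differ, so these values are descriptions and the difference between the levels was not tested.

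**Figure D2:**
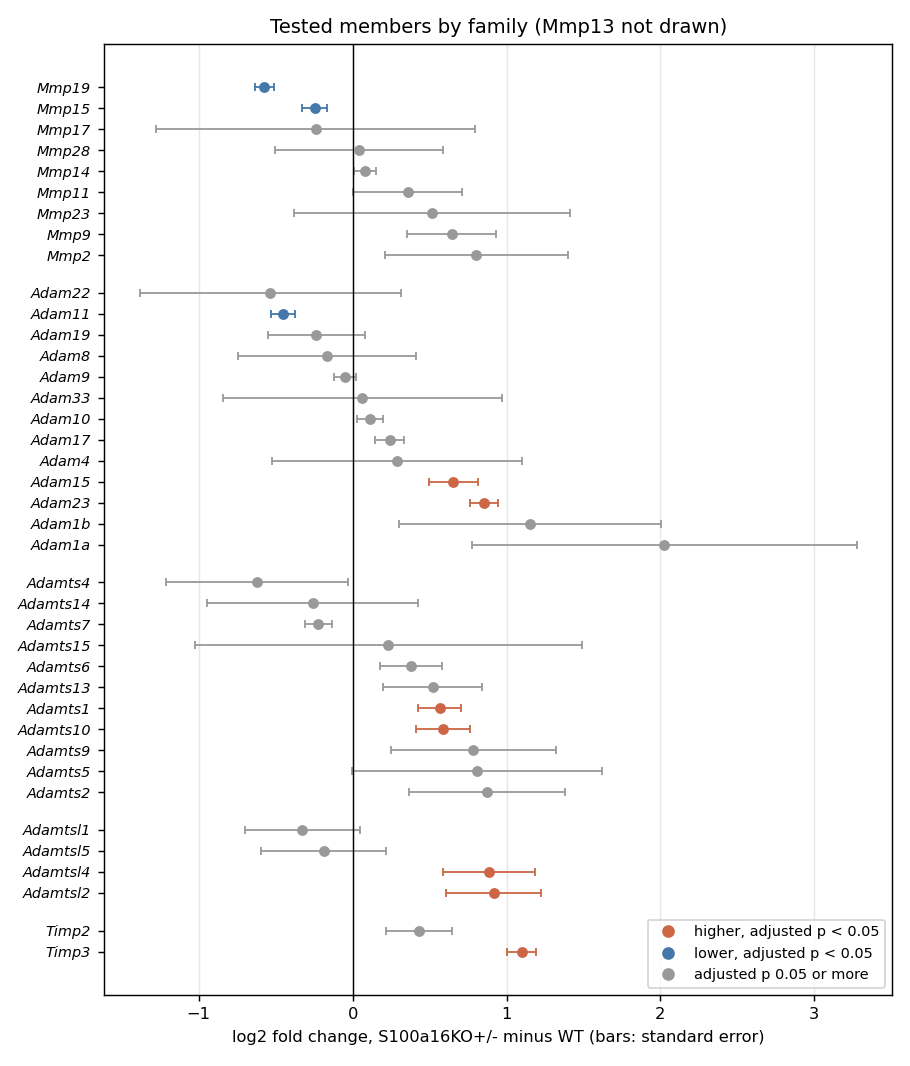
Log2 fold change (S100a16KO+/- minus WT) of 39 tested members by family, with bars of 1 standard error, coloured by direction where the adjusted p was under 0.05 and grey otherwise. Mmp13 is not drawn because its fold rests on 2 WT fragments, and the long grey bars belong to genes with few fragments.

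Upstream sequences are shown for 4 of the members that rose, because their promoters differ in kind. Each is the run of 250 bases before the RefSeq transcription start (GRCm38.p6), 5′ to 3′ on the gene's strand, with capitals for a GC box (GGGCGG on either strand), a TATAAA element or an AP-1 motif (TGANTCA). The windows are chr10:86300162-86300411, plus strand for Timp3, chr1:63445641-63445890, plus strand for Adam23, chr16:85803114-85803363, minus strand for Adamts1 and chr9:7272264-7272513, plus strand for Mmp13. The RefSeq start of Timp3 lies 40 bases inside the gene span of the expression table.
Timp3: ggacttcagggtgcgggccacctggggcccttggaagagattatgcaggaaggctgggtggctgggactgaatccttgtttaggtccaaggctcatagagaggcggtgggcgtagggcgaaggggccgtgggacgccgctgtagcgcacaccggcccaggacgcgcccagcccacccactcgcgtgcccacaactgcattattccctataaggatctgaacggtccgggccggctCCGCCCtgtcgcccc
Adam23: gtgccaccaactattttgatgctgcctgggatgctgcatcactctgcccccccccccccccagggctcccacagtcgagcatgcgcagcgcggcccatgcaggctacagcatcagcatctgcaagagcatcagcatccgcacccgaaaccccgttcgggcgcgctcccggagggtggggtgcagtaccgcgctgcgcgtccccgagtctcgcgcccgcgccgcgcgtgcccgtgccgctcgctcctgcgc
Adamts1: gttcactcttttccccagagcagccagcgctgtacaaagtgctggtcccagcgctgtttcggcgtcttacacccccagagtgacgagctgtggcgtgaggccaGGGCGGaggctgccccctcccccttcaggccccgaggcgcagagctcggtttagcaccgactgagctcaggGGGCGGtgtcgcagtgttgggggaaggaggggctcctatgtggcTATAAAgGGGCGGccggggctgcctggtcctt
Mmp13: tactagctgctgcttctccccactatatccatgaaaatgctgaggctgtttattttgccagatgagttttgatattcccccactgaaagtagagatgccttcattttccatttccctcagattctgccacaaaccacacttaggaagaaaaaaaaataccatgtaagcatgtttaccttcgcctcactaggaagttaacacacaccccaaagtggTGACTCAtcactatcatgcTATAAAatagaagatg
Timp3 carried 1 GC box and Adamts1 carried 3 GC boxes with a TATAAA element. The Adam23 window held none of the searched motifs but 27 CpG dinucleotides, whereas the Mmp13 window held an AP-1 motif, a TATAAA element and 1 CpG.

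Promoter entries were found for 37 of the 59 members, 41 entries in all. The GC box occurred in 58.5% of the members' entries and in 35.7% of all 32851 promoters, and the AP-1 motif in 9.76% and 7.81%. TATAAA occurred in 14.6% and 13.6%, and the CCAAT box in 29.3% and 37.4%. The median GC content was 63.3% for the members and 52.7% for all promoters. These counts cover the whole 300 bases of each entry and describe letters, not binding. The motifs other than AP-1 were chosen with results known.

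Timp3 rose, with the lowest adjusted p of the 40 members tested. The gene lies at chr10:86300372-86349506 on the plus strand of GRCm38 (mm10), inside the span of Syn3 on the opposite strand. Its estimated counts were 1532, 1794 and 1386 in WT and 3274, 3502 and 3193 in S100a16KO+/- libraries. Every S100a16KO+/- library lay above every WT library, and the level rose from 2.49 ± 0.344 to 5.35 ± 0.301 FPKM (SD, n = 3). The log2 fold change was 1.10 ± 0.09 (SE, adjusted p = 1.43e-06, edgeR with Benjamini-Hochberg adjustment), and Timp3 was called in 18 of 18 alternative settings. Syn3, which encodes a synapsin, had mean counts of 47.3 in WT and 27.7 in S100a16KO+/- libraries (adjusted p = 0.303, edgeR).

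Stellate and endothelial markers moved with Timp3 and were set beside it. Timp3 amounted to 29.5%, 36.3% and 28.8% of the summed stellate marker CPM in WT libraries and to 40.2%, 42.1% and 38.2% in S100a16KO+/- libraries. These groups did not overlap, so Timp3 was higher by more than the stellate marker sum. Relative to the endothelial sum it reached 149.0% of its WT value, again without overlap. The part of stellate and endothelial RNA in the rise of Timp3 was not tested.

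The other inhibitors were scarcer. Timp2, which blocks MMPs and also helps the membrane protease MMP14 to activate MMP2, had 95, 143 and 126 counts in WT and 150, 156 and 181 in S100a16KO+/- libraries. The groups did not overlap, but the log2 fold change of 0.43 ± 0.21 (SE) missed the threshold (unadjusted p = 0.0644, adjusted p = 0.178, edgeR). Its 95% interval of 0.01 to 0.85 is a normal approximation and narrower than the test, whose unadjusted p was over 0.05. Timp2 overlaps Cep295nl on the same strand, so its counts are uncertain. Timp4 was listed with 0, 8 and 0 counts in WT and 0, 3 and 0 in S100a16KO+/- libraries, under the floor of 12 in each.

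Among the MMPs, Mmp19 was the most abundant and fell. Mmp19 encodes a secreted protease that cleaves basement membrane proteins (chr10:128790910-128800824, plus strand). It had 3688, 4135 and 3827 counts in WT and 2671, 2269 and 2835 in S100a16KO+/- libraries, so that the highest S100a16KO+/- library stayed below the lowest WT library. The CPM fell by 32.9%, with a log2 fold change of -0.57 ± 0.06 (SE, adjusted p = 1.04e-05, edgeR), and the call held in 18 of 18 alternatives. Tmem198b overlaps the gene on the opposite strand, with mean counts of 304.7 and 373.7 (adjusted p = 0.140, edgeR).

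The membrane-anchored MMPs moved less. Mmp15 had 1681, 1944 and 1598 counts in WT and 1515, 1363 and 1489 in S100a16KO+/- libraries (chr8:95352268-95375080, plus strand). It fell without overlap by 0.25 ± 0.08 (SE) on the log2 scale (adjusted p = 0.0395, edgeR). That call was lost when any library other than WT replicate 3 was left out (adjusted p up to 0.181, and 0.0341 to 0.285 over all alternatives). Mmp14, the main activator of MMP2, had 4.53 ± 0.0876 FPKM in WT and 4.81 ± 0.235 FPKM in S100a16KO+/- libraries, which overlapped. The 95% interval of its log2 fold change ran from -0.06 to 0.22 and held no change as large as that of Mmp19.

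Mmp13 rested on very few fragments. It encodes an interstitial collagenase, the main one in rodents. Its counts were 0, 7 and 0 in WT and 30, 12 and 23 in S100a16KO+/- libraries, about 2 against 17 fragments. The ratio of fragments was 8.56 with an exact 95% interval of 2.03 to 76.4, which covers counting error only. The adjusted p was 0.0491 (edgeR), and the gene passed the filter only through the S100a16KO+/- libraries. Leaving out any library but WT replicate 2 ended the call (adjusted p up to 0.192, and 0.0120 to 0.192 over the 13 alternatives with a value). Mmp13 had no adjusted p with DESeq2, with counts divided by 4, with at least 40 counts in 3 libraries or with limma on filtered FPKM. The gelatinases Mmp9 and Mmp2, named after their values were seen, missed the threshold. Mmp9 had 83, 81 and 45 counts in WT and 114, 107 and 102 in S100a16KO+/- libraries, without overlap (adjusted p = 0.134, edgeR). Of the 16 Mmp genes, 10 were tested, and Mmp19, Mmp15 and Mmp13 were called (30.0%, against 22.8% of all genes).

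The summed MMP level was lower and the summed TIMP level higher in S100a16KO+/- hepatocytes, with Mmp12 and Timp1 in neither sum. The MMP sum was 22.2, 25.5 and 23.7 FPKM in WT and 19.8, 17.8 and 19.8 FPKM in S100a16KO+/- libraries. The TIMP sum was 2.63, 3.38 and 2.68 FPKM in WT and 5.81, 6.20 and 5.67 FPKM in S100a16KO+/- libraries. Neither pair of groups overlapped, and the ratio of the MMP to the TIMP sum was 8.26 ± 0.655 in WT and 3.26 ± 0.340 in S100a16KO+/- libraries (SD, n = 3), 39.5% of WT. Both sums followed 1 gene each. Of the 10 MMP genes tested, 7 (70.0%) had a positive log2 fold change, against 50.6% of all genes, with a median of 0.22. Of these 7 only Mmp13 was called, so the signs of most are uncertain. Mmp19 made up 59.7% of the MMP sum in WT and 50.0% in S100a16KO+/- libraries, and Timp3 made up 86.0% and 90.7% of the TIMP sum. The sums describe these transcripts only and were not tested.

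**Figure D3:**
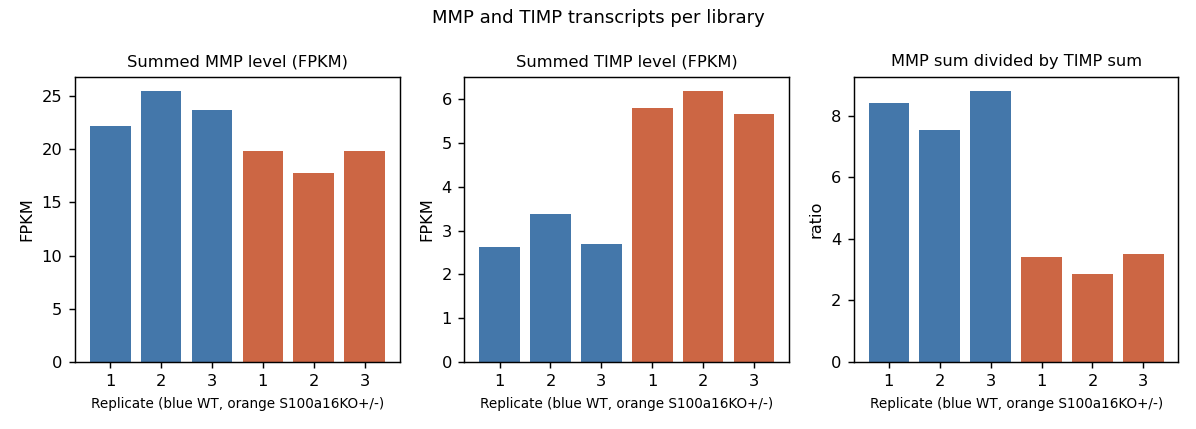
Summed level of the 16 Mmp genes and of the 3 Timp genes (FPKM), and the ratio of the sums, with 1 bar per library, WT in blue and S100a16KO+/- in orange. The ratio lay between 7.55 and 8.83 in WT and between 2.87 and 3.50 in S100a16KO+/- libraries.

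Of the 20 Adam genes, 13 were tested, and Adam23, Adam15 and Adam11 changed (23.1%, against 22.8% of all genes). Adam23 encodes a membrane protein without protease activity that acts in cell adhesion (chr1:63445891-63596276, plus strand). It had 756, 771 and 737 counts in WT and 1268, 1360 and 1428 in S100a16KO+/- libraries, far apart between genotypes. Its log2 fold change was 0.85 ± 0.09 (SE, adjusted p = 6.62e-06, edgeR), called in 18 of 18 alternatives. Relative to the stellate marker sum Adam23 stood at 107.7% of WT with overlapping groups, and relative to the endothelial sum at 125.6% without overlap.

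Adam11, another member without protease activity, went the other way (chr11:102761439-102780262, plus strand). It had 2429, 2535 and 2308 counts in WT and 1598, 1661 and 2030 in S100a16KO+/- libraries. The groups did not overlap, and the level fell from 5.52 to 4.06 FPKM (log2 fold change -0.45 ± 0.08 (SE), adjusted p = 0.000669, edgeR). The call held in 17 of 18 alternatives and was lost on log2(FPKM + 0.1) without a filter (adjusted p = 0.0542, limma).

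Adam15 encodes an active ADAM that also binds integrins, and lies 1.19 Mb from S100a16 at chr3:89338542-89349989 on the minus strand. Its counts were 192, 201 and 207 in WT and 279, 323 and 334 in S100a16KO+/- libraries, without overlap. The log2 fold change was 0.65 ± 0.16 (SE, adjusted p = 0.00787, edgeR). Without both libraries of high mitochondrial share the adjusted p was 0.0654, the highest of its alternatives, which began at 0.00505.

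The main sheddases missed the threshold. Adam10, which cleaves Notch receptors and cadherins, had 3.72 FPKM in WT and 4.04 FPKM in S100a16KO+/- libraries, with a 95% interval of -0.05 to 0.28 on the log2 scale. Adam17, which releases tumour necrosis factor and its receptors, had 750, 866 and 727 counts in WT and 908, 843 and 1000 in S100a16KO+/- libraries. After scaling its groups did not overlap, with a log2 fold change of 0.24 ± 0.09 (SE, adjusted p = 0.0845, edgeR) and a 95% interval of 0.06 to 0.43. Upper-quartile scaling brought Adam17 past the threshold (adjusted p = 0.0476, and 0.0476 to 0.320 over all alternatives). Adam9 overlapped between genotypes, with an interval of -0.19 to 0.09. Adam1a, named after its values were seen, spread from 5 to 156 counts in WT and from 77 to 353 counts in S100a16KO+/- libraries (adjusted p = 0.362, edgeR), and shares its strand with the overlapping gene Mapkapk5, so its counts are uncertain.

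Of the 15 Adamts genes, 11 were tested and 2 were called, both higher (18.2%, against 22.8% of all genes called). Adamts1, which cleaves the proteoglycans versican and aggrecan, had 425, 554 and 573 counts in WT and 737, 613 and 942 in S100a16KO+/- libraries (chr16:85793827-85803113, minus strand). The groups did not overlap, although S100a16KO+/- replicate 2 lay close to the upper WT libraries. Its log2 fold change was 0.57 ± 0.14 (SE, adjusted p = 0.00956, edgeR), but 0.43 with an adjusted p of 0.0642 without S100a16KO+/- replicate 3 (0.00378 to 0.186 over all alternatives).

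Adamts10, which binds fibrillin microfibrils, had 170, 211 and 209 counts in WT and 271, 329 and 275 in S100a16KO+/- libraries, without overlap (chr17:33524204-33553770, plus strand). Its log2 fold change was 0.59 ± 0.18 (SE, adjusted p = 0.0267, edgeR). The call was lost without any 1 of the WT libraries or without S100a16KO+/- replicate 2 (adjusted p up to 0.122, and 0.0180 to 0.274 over all alternatives). Adamts7, which cleaves cartilage oligomeric matrix protein, was lower in every S100a16KO+/- library than in any WT library without passing the test (log2 fold change -0.22 ± 0.09 (SE), adjusted p = 0.0809, edgeR).

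The ADAMTS-like proteins have no protease domain and attach to fibrillin microfibrils. Of 5 genes, 4 were tested and 2 were called, both higher (50.0%, against 22.8% of all genes called). Adamtsl2 had 45, 55 and 35 counts in WT and 80, 82 and 91 in S100a16KO+/- libraries (chr2:27079379-27108981, plus strand). Adamtsl4, 5.13 Mb from S100a16 at chr3:95676201-95687917 on the minus strand, had 53, 49 and 38 counts in WT and 87, 84 and 86 in S100a16KO+/- libraries. Neither gene overlapped between genotypes. Adamtsl2 had a log2 fold change of 0.92 ± 0.31 (SE, adjusted p = 0.0461, edgeR) and Adamtsl4 one of 0.89 ± 0.30 (SE, adjusted p = 0.0467, edgeR). Both rest on 35 to 91 counts per library, at about 4 counts a fragment. The call of Adamtsl2 was lost without any library other than WT replicate 2 (adjusted p up to 0.140, and 0.0375 to 0.283 over all alternatives), and that of Adamtsl4 without any 1 of the 6 libraries (adjusted p up to 0.137, and 0.0315 to 0.137 over all alternatives).

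The smaller rises were also set beside the stellate marker sum, which stood at 167.7% of WT. Relative to that sum, Adam15 stood at 93.6%, Adamts1 at 88.4% and Adamts10 at 88.9% of WT, and their groups overlapped. Adamtsl2 and Adamtsl4 stood at 112.9% and 110.8%, also with overlap. Relative to the endothelial sum, Adam15, Adamts1 and Adamts10 overlapped between genotypes, while Adamtsl2 and Adamtsl4 did not. The part of stellate and endothelial RNA in these rises and in that of Adam23 was not tested. Mmp19, Adam11 and Mmp15 fell while both sums were higher.

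**Figure D4:**
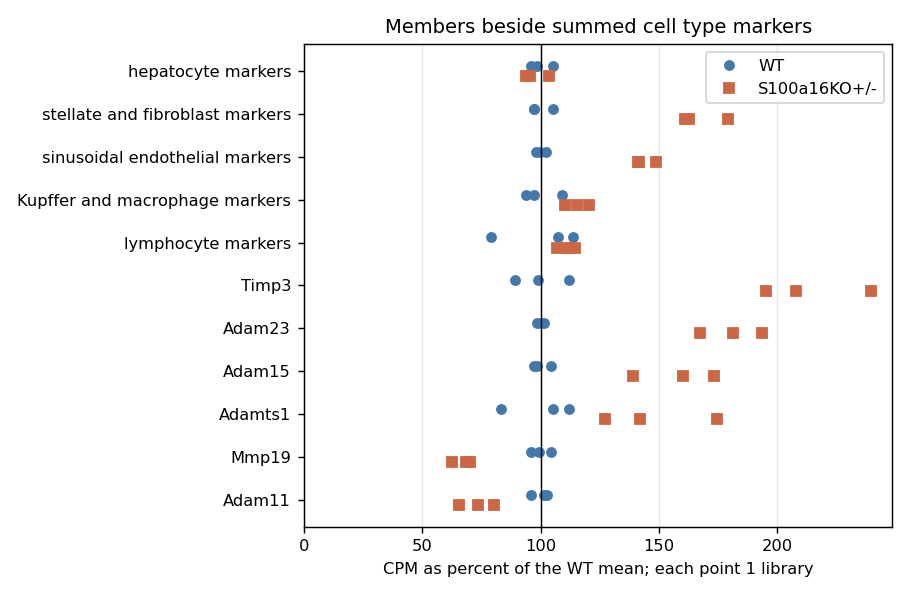
Marker sums of 5 cell types and 6 members in each library, as percent of the WT mean (CPM), WT as blue circles and S100a16KO+/- as orange squares, with a line at 100. Stellate markers stood at 167.7% and sinusoidal endothelial markers at 143.8% of WT, Timp3 lay further to the right than either mean, and Mmp19 and Adam11 lay to the left of the line.

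Genes that work with these proteases were read from a list of 74 activators, other inhibitors, regulators, shed membrane proteins and matrix substrates, of which 63 were tested. Of the 63, 24 (38.1%) changed, 15 higher and 9 lower, against 22.8% of all genes (11.6% higher and 11.2% lower). The list was drawn up with earlier results of these data known, so its shares and those of its parts are descriptions. The lower calls were the less stable: 4 were left with upper-quartile scaling (17 higher), and 2, Areg and Notch2, both without WT replicate 2 and without S100a16KO+/- replicate 3 (14 higher each time). Of 14 matrix substrates tested, 7 were called, all higher (50.0%, against 22.8% of all genes), and 14 of 14 log2 fold changes were positive (50.6% of all genes). Stellate marker sums at 167.7% and endothelial marker sums at 143.8% of WT moved with these substrates, and their part in the rise was not tested. Col1a1, Col1a2 and Col3a1 were on both the substrate list and the stellate list, so the substrates and the stellate sum were not independent. Vwf, the target of ADAMTS13 and an endothelial product, had 56, 36 and 39 counts in WT and 117, 92 and 124 in S100a16KO+/- libraries (log2 fold change 1.35 ± 0.30 (SE), adjusted p = 0.00418, edgeR). Bgn, the small proteoglycan biglycan, rose by 0.70 ± 0.09 (SE) on the log2 scale (adjusted p = 8.02e-05, edgeR). Hepatocyte-made matrix proteins also rose, fibronectin (Fn1) by 0.33 and vitronectin (Vtn) by 0.21 on the log2 scale. Adamts13 itself, named after its values were seen, had 59, 54 and 99 counts in WT and 89, 75 and 141 in S100a16KO+/- libraries, which overlapped (adjusted p = 0.286, edgeR).

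Among the shed membrane proteins, 12 of 23 tested genes (52.2%) changed, 4 higher and 8 lower, beside 22.8% of all genes. Areg, the growth factor amphiregulin that ADAM17 releases, had 28, 55 and 20 counts in WT and 0, 0 and 4 in S100a16KO+/- libraries, about 26 against 1 fragments. The ratio of fragments was 0.0387 (exact 95% interval 0.000945 to 0.236, counting error only), without overlap (adjusted p = 0.00414, edgeR). Notch2 fell by 0.45 on the log2 scale. Btc (betacellulin) fell by 0.77 and Cdh1 (E-cadherin) by 0.31, but Btc lost its call without WT replicate 1 or 2 or S100a16KO+/- replicate 1 or 3, and Cdh1 without WT replicate 2 or S100a16KO+/- replicate 1 or 3 (adjusted p up to 0.0906 and 0.158; 0.0142 to 0.121 and 0.0182 to 0.219 over all alternatives, edgeR, DESeq2 or limma). The tumour necrosis factor receptor gene Tnfrsf1b rose by 0.66 and the chemokine gene Cxcl16 by 0.68. None of the 8 tested regulators of ADAM10 and ADAM17 passed the test in edgeR, DESeq2 or voom, and 1 of them, Rhbdf2, had an unadjusted p under 0.05 (log2 fold change -0.36 ± 0.12 (SE), adjusted p = 0.0557, edgeR).

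Of the 11 activators tested, 3 changed (27.3%), near the share of all genes. Plasminogen (Plg), the liver-made precursor of a protease that activates MMPs, rose by 0.25 ± 0.05 (SE) on the log2 scale (adjusted p = 0.00150, edgeR), and its inhibitor Serpinf2 rose by 0.23. The proprotein convertase gene Pcsk7 fell by 0.27, a call lost without WT replicate 2 or 3 or S100a16KO+/- replicate 2 or 3 (adjusted p up to 0.152, and 0.0228 to 0.271 over all alternatives, edgeR, DESeq2 or limma). Furin, which removes the prodomain of membrane MMPs and ADAMs, overlapped between genotypes at 15.1 FPKM in both. Of 7 other inhibitors tested, the plasma inhibitors Mug2 and Pzp of the macroglobulin family rose by 0.50 and 0.33 (28.6% of these inhibitors, against 22.8% of all genes).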

How the data were processed

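Per the submitters' processing notes, the authors used cutadapt 1.9, HISAT2 2.0.4, UMI-tools, StringTie 1.3.4d, DESeq2 and edgeR with the mouse build mm10; their roles were not given. Libraries were strand-specific, and whether counting used strand was not stated. Each library came with an FPKM column and a column of estimated counts per gene, both as deposited. Members and gene lists were chosen with earlier results of these data known.

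Estimated counts (whole numbers) were tested for 15957 genes in edgeR 4.0.16 (R 4.3.3) with TMM scaling, filterByExpr and the robust quasi-likelihood test, two-sided, with Benjamini-Hochberg adjustment over all of them and a threshold of 0.05. DESeq2 1.42.0, limma 3.58.1 on counts (voom) and on log2(FPKM + 1) or log2(FPKM + 0.1), other scalings, filters, the replicate number as a block and the omission of each library served as alternatives. Standard errors came from the log2 fold change and its F statistic, and 95% intervals from the standard errors by a normal approximation. These intervals are narrower than the test at this number of libraries. CPM were scaled by TMM. The test was checked on simulated data. Named genes were the members called or 2-fold changed, the 10 of highest FPKM, the Timp genes, and the 5 largest called rises and falls of the pathway list; other list genes are examples chosen after their values were seen. Gene positions are those of the expression table. All 59 identifiers were found in the GENCODE M21 annotation of GRCm38, 52 with the same span. Adam15 and Adamts10 had another span there. Overlapping genes were read from that annotation. Replicate numbers did not pair libraries: deviations from the genotype means correlated between -0.02 and 0.02 for all 9 pairs. Fragment ratios of fewer than 3 fragments in a group were given with counting intervals. Protein sequences were not used here.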

Additional observations from a re-analysis of the deposited data

How the results depend on the processing

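S100a16 and the calls of Timp3, Adam23 and Mmp19 held under every one of the 18 alternatives run, with log2 fold changes of -1.46 to -1.17 for S100a16, 0.87 to 1.19 for Timp3, 0.37 to 0.90 for Adam23 and -0.61 to -0.52 for Mmp19. Over S100a16 and the named members, 257 of 319 alternatives kept direction and side of the threshold, 60 lost the call, 1 gained it and 1 turned the direction: Adam9, never called, had a log2 fold change of -0.05, and of -0.10 to 0.0248 without 1 library, the highest without S100a16KO+/- replicate 2. The count of 11 members called became 5 with limma on log2(FPKM + 1), 5 on log2(FPKM + 0.1) and 3 on that scale without a filter, 7 with the replicate block, 6 at an adjusted p under 0.01, 6 without both libraries of high mitochondrial share, and 6 to 8 without 1 library. DESeq2 called 8 and voom 10; upper-quartile scaling called 11, with 9 higher and 2 lower. The 2 members past the 2-fold criterion became 1 with at least 40 counts in 3 libraries, 1 with counts divided by 4, 0 with limma on log2(FPKM + 1), 1 on log2(FPKM + 0.1) without a filter, 1 without both libraries of high mitochondrial share, and 1 to 4 without 1 library (4 without WT replicate 2, 1 without S100a16KO+/- replicate 1). The share of all genes past that criterion was 4.52% in the main fit, 0.936% with limma on log2(FPKM + 1) and 2.32% on log2(FPKM + 0.1) without a filter. It was 3.79% to 4.96% in the others of these settings. The 24 of 63 genes of the pathway list became 13 of 52 with limma on log2(FPKM + 1), 13 of 52 on log2(FPKM + 0.1), 9 of 71 on that scale without a filter, and 16 to 22 of 63 without 1 library. The share of all genes called was 22.8% in the main fit. It was 15.3% with limma on log2(FPKM + 1), 15.2% on log2(FPKM + 0.1) and 6.68% on that scale without a filter. The replicate block gave 19.3%, DESeq2 13.8%, voom 21.99% and upper-quartile scaling 22.6%. It was 16.96% without WT replicate 2, 16.5% without WT replicate 3 and 13.97% at an adjusted p under 0.01. The shares for the other omitted libraries and without both libraries of high mitochondrial share are given above. Omitting a library leaves fewer samples; the other causes were not tested. The pairing of replicate numbers is only a shared number here, and the replicate block lowered the pathway count to 19. Counting depth limits Mmp13, Areg, Adamtsl2 and Adamtsl4, and the 19 members that were not tested were too low for a comparison at this depth.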

Other observations

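Members of the MMP cluster on chromosome 9 were near the floor. Mmp13, Mmp27, Mmp7 and Mmp8, which lie within 427 kb of each other, had no library above 30 counts. Mmp13 alone of these 4 passed the filter on low counts, and Mmp7, Mmp8 and Mmp27 reached at most 16 counts. Mmp8, a collagenase of neutrophil granules, had 0 to 8 counts per library. Mmp12, which lies in the same cluster, was not part of the set and was not examined.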
